A study of Mus musculus with 16 samples.

Results

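The comparison described here is that of cells with a medium level of FOXA2 against cells with a low level, both from mouse neural tube organoids on day 4. Its members are 8 of the 16 libraries of the study, 4 labelled medium and 4 labelled low, taken by the name of their column in the count table. All libraries came from the R1 embryonic stem cell line with a FOXA2-Venus reporter, in which a yellow fluorescent protein reports FOXA2, and all had retinoic acid (RA) for 18 hours. The groups differed, by their labels, only in FOXA2 expression: negative, low, medium or high. The labels give neither the bounds between the groups, called gates below, nor whether the reporter line is 1 clone, nor whether numbered libraries are separate cultures. The p-values therefore speak of the spread among these libraries only, and part of it may be technical.

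FOXA2 is a forkhead transcription factor that opens chromatin and, in the neural tube, drives the formation of the floor plate, the strip of cells along the ventral midline. The floor plate secretes Sonic hedgehog, which patterns the progenitors beside it, while BMP and WNT signals pattern the dorsal side. Neural progenitors outside the floor plate are kept dividing by Notch signalling through genes of the Hes family, and the floor plate itself makes few neurons. The low and medium gates are the inner pair of the 4, so the comparison asks how cells with more FOXA2 differ from cells with less, short of the extremes.

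RNA was counted by BRB-seq, a bulk 3′ method that barcodes and pools samples early. Totals ran from 5527287 to 7930805 counts in the low libraries and from 5155331 to 7017046 in the medium ones, and the share on the 13 mitochondrial protein genes averaged 1.97% and 1.88%. Levels below are in CPM, the usual depth-scaled count (a count relative to the scaled library total), and a log2 fold change is medium over low, with its standard error (SE), from a model fitted with edgeR to all 16 libraries. A gene was called when its p-value, adjusted over all 13891 genes tested, was under 0.05. In bulk samples fewer cells of a type and less RNA per cell cannot be told apart.

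The low 1 and medium 2 libraries stood apart. Over the 8 libraries, principal component 1 accounted for 25.3% of the variance, with low 1 at -25.21 and medium 2 at -37.22, and the others between 2.95 and 17.6. Component 2 (18.5%) separated the gates, with the low libraries between 4.38 and 23.1 and the medium ones between -22.06 and -4.21. Counts were therefore also taken without these 2 libraries. Their summed level of 20 pluripotent and epiblast markers was also the highest of their gate. It was 1407 CPM in low 1 against at most 913 in the other low libraries. In medium 2 it was 1280 CPM against at most 849 in the other medium ones. Most of the sum was Lin28a, Dnmt3b and Sall4, which averaged 488, 209 and 156 CPM in the low gate, so it mainly reflects these genes. The part of this in the results was not tested.

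Foxa2 set the gates, so its values are a check of the labels and not a finding. It measured 14.8, 9.54, 14.3 and 9.14 CPM in low 1 to low 4, and 55.9, 60.0, 38.5 and 53.4 CPM in medium 1 to medium 4. Every medium library lay above every low one, as the labels say, and the fitted difference was 2.11 on the log2 scale.

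Between low and medium, 67 genes were higher in the medium gate (0.482% of those tested) and 31 were lower (0.223%), by edgeR's quasi-likelihood test. The median log2 fold change over all tested genes was -0.01. In the same test 1012 of the 13891 genes had an unadjusted p under 0.05. Apart from Foxa2, the 66 higher genes had changes of 0.43 to 3.69 on the log2 scale, and 35 of them passed 2-fold. The largest was that of Fam43b, with 5 counts over the 4 low libraries and 62 over the 4 medium ones. Fam43b was too low to be tested with only the low and medium libraries, or after thinning to the smallest library. The 31 lower genes fell by between 0.49 and 1.61, and 16 passed 2-fold. All 4 medium libraries lay above all 4 low ones for 60 of the 66, and below them for 29 of the 31. Over all tested genes, groups separated in this way for 2.09% in the upward direction and for 1.99% in the downward direction. Of the 98 called genes, 42 were called in each of the 8 fits that leave out 1 low or medium library, and 55 were called without low 1 and medium 2 together, where 43 genes were higher and 23 lower. The count of higher genes was 34 without low 3, 38 without low 4 and 38 without medium 1, and that of lower genes 19 without low 1, 20 without low 3 and 16 without medium 1.

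**Figure D1:**
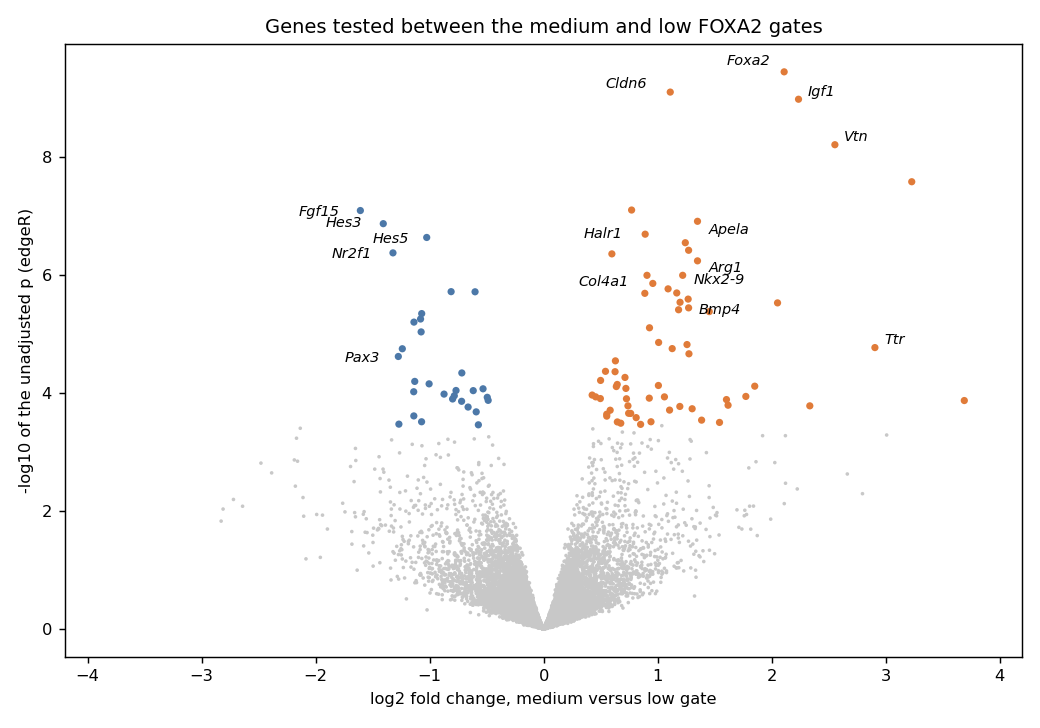
Log2 fold change of medium over low (horizontal axis) against minus log10 of the unadjusted p-value (vertical axis) for the 13891 tested genes, with called genes in colour. The 67 higher genes reach farther from 0 than the 31 lower ones, and Igf1, Vtn and Cldn6 stand near the top. The farthest called gene, Fam43b, held 5 counts over the low libraries.

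The promoters of 3 members, chosen after the windows were searched, are printed here because they hold a motif named below, and the start of a head-to-head pair of collagen genes because both members of the pair rose. Each is from RefSeq, build GRCm38.p6, read in the direction of the gene unless stated, and runs from 250 bases before to 50 after the start site. Capitals in the Hes5 window mark TGGGAA, a core of the site of RBPJ, the DNA-binding factor of Notch signalling, on either strand. Capitals in the Foxa1 and Apela windows mark TGTTTAC, a core of the forkhead site, on either strand.

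Hes5 (chr4:154960673-154960972, plus strand): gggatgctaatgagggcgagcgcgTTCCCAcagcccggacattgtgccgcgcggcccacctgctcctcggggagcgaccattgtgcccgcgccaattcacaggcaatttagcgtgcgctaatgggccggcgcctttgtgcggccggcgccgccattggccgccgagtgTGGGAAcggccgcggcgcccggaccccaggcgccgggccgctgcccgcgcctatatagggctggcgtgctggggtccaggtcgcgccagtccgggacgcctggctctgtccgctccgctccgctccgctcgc
Foxa1 (chr12:57546062-57546361, minus strand): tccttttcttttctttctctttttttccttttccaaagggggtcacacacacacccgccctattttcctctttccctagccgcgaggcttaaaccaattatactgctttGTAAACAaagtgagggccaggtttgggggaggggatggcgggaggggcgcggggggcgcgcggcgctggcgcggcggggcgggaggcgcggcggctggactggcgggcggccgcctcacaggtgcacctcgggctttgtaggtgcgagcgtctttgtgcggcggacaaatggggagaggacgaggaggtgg
Apela (chr8:65037287-65037586, minus strand): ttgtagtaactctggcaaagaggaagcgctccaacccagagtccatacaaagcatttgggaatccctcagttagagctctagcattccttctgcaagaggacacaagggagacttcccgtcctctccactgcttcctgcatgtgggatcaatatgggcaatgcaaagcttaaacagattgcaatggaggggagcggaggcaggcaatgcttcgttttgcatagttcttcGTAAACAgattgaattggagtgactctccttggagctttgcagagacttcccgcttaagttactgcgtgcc

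The Hes5 window held 2 matches, 226 and 82 bases upstream of the start site, the Foxa1 window 1 match at 141 bases and the Apela window 1 match at 21 bases. Over all tested genes with such a window, 240 of 10467 (2.29%) held TGTTTAC and 2371 (22.7%) held TGGGAA. Windows were found for 48 of the 66 higher genes and for 19 of the 31 lower ones. TGTTTAC stood in 4 of the 48 (8.33%) and in 0 of the 19, and TGGGAA in 16 (33.3%) and 6 (31.6%). TGGGTGGTC, the site of the GLI factors of hedgehog signalling, stood in 0 of both and in 24 of all windows (0.229%). A match describes the letters of a window only and shows no binding.

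Foxa1 and Nkx2-9, of the ventral side of the neural tube, were higher in the medium gate. Foxa1, the paralogue of Foxa2, measured 3.04, 1.41, 0.706 and 2.32 CPM in low 1 to low 4 and 5.9, 10.4, 4.15 and 7.08 CPM in medium 1 to medium 4. The gates did not overlap, and the log2 fold change was 1.85 (SE 0.392, adjusted p = 0.0201). Nkx2-9, a homeobox gene expressed beside the floor plate, measured 42.9, 44.1, 28.4 and 25.8 CPM in the low libraries and 84.2, 104, 69.0 and 71.5 CPM in the medium ones. Its lowest medium library stood above its highest low one (log2 fold change 1.22, SE 0.190, adjusted p = 0.00079). The call of Foxa1 was lost without low 2, low 3 or medium 2 (adjusted p between 0.0525 and 0.0952), and that of Nkx2-9 held in all 8 fits.

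Among floor plate genes, Foxa2 left out, 10 were tested, of which 1 rose (Foxa1) and 0 fell, and the median log2 fold change was 0.43 beside -0.01 over all tested genes. Spon1, a secreted floor plate protein, measured 12.9 ± 1.94 CPM at low and 17.5 ± 2.59 at medium FOXA2 (SD, n = 4), Ntn1, the guidance cue netrin 1, 10.5 ± 1.38 and 15.4 ± 4.12, and Slit3, a midline repellent, 15.4 ± 2.96 and 22.1 ± 6.43. None of these passed the test, with adjusted p of 0.528, 0.357 and 0.510. Of 3 tested ventral progenitor genes, 1 rose (Nkx2-9) and 0 fell, with a median of 1.04. Nkx6-1 measured 3.25 ± 1.59 and 6.73 ± 0.665 CPM without overlap of the libraries, but did not pass the test (adjusted p = 0.494). Shh was not tested because of its low level, with 3 counts over the 4 low libraries and 17 over the 4 medium ones, and Olig2 is listed at 0 in all 16 libraries.

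Of the targets of hedgehog signalling, Ptch1 was higher in the medium gate. Ptch1, the receptor of Sonic hedgehog and a target of the pathway, measured 29.5, 45.7, 27.0 and 30.6 CPM in the low libraries and 56.1, 99.1, 53.1 and 57.8 CPM in the medium ones. Medium 2 was far above the rest of its gate, and the log2 fold change was 1.01 (SE 0.187, adjusted p = 0.0054). Without low 1 and medium 2 the adjusted p was 0.0728. Of 4 tested targets 1 rose (Ptch1) and 0 fell, with a median of 0.85, and the count was 0 without those 2 libraries. Gli1, another target, measured 11.7 ± 1.73 and 13.9 ± 2.29 CPM (adjusted p = 0.952), and Hhip, a hedgehog-binding inhibitor, 3.02 ± 1.03 and 6.99 ± 1.68 CPM (adjusted p = 0.357).

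The co-receptor Boc, which helps cells to bind hedgehog, measured 71.9, 38.5, 47.7 and 52.1 CPM in the low libraries and 20.1, 22.3, 29.2 and 28.6 CPM in the medium ones. All medium libraries were below all low ones, and Boc fell by 1.07 on the log2 scale (SE 0.183, adjusted p = 0.00204). Of 12 tested co-receptors and effectors, edgeR called 1 lower (Boc) and 0 higher, with a median of -0.11, and DESeq2 called 2 lower. Gas1, a co-receptor like Boc, measured 14.3 ± 3.23 CPM at low and 8.06 ± 1.52 at medium FOXA2, and missed the threshold in edgeR (adjusted p = 0.0761) but passed it in DESeq2 (adjusted p = 0.0334).

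Pax3, Pax6 and Zic1, which mark intermediate and dorsal parts of the neural tube, were lower in the medium gate. Pax3, a factor of the dorsal tube, measured 31.0, 20.8, 30.6 and 25.7 CPM in the low libraries and 14.2, 7.42, 14.3 and 9.21 CPM in the medium ones. It fell by 1.27 on the log2 scale (SE 0.246, adjusted p = 0.008), and its gates did not overlap. Pax6, a factor of intermediate progenitors, measured 101, 71.3, 83.9 and 92.1 CPM in the low libraries and 63.8, 41.7, 59.3 and 62.7 CPM in the medium ones. It fell by 0.62 on the log2 scale (SE 0.132, adjusted p = 0.022). Zic1, a zinc finger factor of the dorsal tube, fell from 21.9 ± 1.89 to 11.9 ± 2.71 CPM (log2 fold change -0.87, adjusted p = 0.0243).

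Of 19 tested genes of this list 3 fell (Pax6, Pax3 and Zic1) and 0 rose, with a median of -0.65, and 18 of 19 fitted changes were negative. In edgeR 9 of the 19 had an unadjusted p under 0.05. Without low 1 and medium 2 the count of called genes was 0, with adjusted p of 0.0836 for Pax3 and 0.177 for both Pax6 and Zic1. Pax6 also missed the threshold without low 1, low 3, low 4 or medium 2 (adjusted p between 0.0526 and 0.0903), and Zic1 without low 1, low 3, medium 1 or medium 2 (adjusted p between 0.0713 and 0.116). Between the high and the negative gate, 13 of the same 19 genes were called lower, beside 8.48% of all tested genes. Irx3, of the intermediate tube, measured 103 ± 15.6 and 78 ± 5.92 CPM (adjusted p = 0.392).

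Hes5, an effector of Notch signalling that holds neural progenitors undifferentiated, was lower in every medium library. It measured 109, 113, 108 and 113 CPM in low 1 to low 4 and 58.5, 45.4, 51.5 and 62.2 CPM in medium 1 to medium 4. The log2 fold change was -1.02 (SE 0.145, adjusted p = 0.000294), and it was called in all 8 fits. Hes3, a related repressor, measured 33.3, 21.2, 28.9 and 34.7 CPM and then 10.6, 9.4, 10.5 and 13.9 CPM. It fell by 1.41 on the log2 scale (SE 0.193, adjusted p = 0.00021), again without overlap. Both genes lie on chromosome 4, Hes5 at 154960923 to 154962371 and Hes3 at 152285972 to 152291662 (GRCm38), and are 2669261 bases apart.

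Of 13 tested pan-neural genes, 2 fell (Hes5 and Nrcam) and 0 rose, with a median of -0.63. In edgeR 9 of the 13 had an unadjusted p under 0.05. Without low 1 and medium 2 the count of called genes was 1. Nrcam, a neural adhesion molecule, fell from 30.4 ± 1.57 to 17.9 ± 3.02 CPM (log2 fold change -0.77, adjusted p = 0.022); its call was lost without low 1, low 4, medium 2 or medium 3 (adjusted p between 0.0565 and 0.0857). Nes, which codes for nestin, measured 72.2 ± 29.2 and 43.9 ± 13.7 CPM (adjusted p = 0.343). Sox1 and Sox2, which define neural progenitors, are listed at 0 in all 16 libraries, so they check nothing here. Of 17 tested genes of the Notch pathway, edgeR called 1 lower (Hes3) and 0 higher, with a median of -0.07, and DESeq2 called 1 in each direction. Hes1 measured 118 ± 10.5 CPM at low and 160 ± 10.8 at medium FOXA2 without overlap; it missed the threshold in edgeR (adjusted p = 0.0561) and passed it in DESeq2 (adjusted p = 0.00582).

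**Figure D2:**
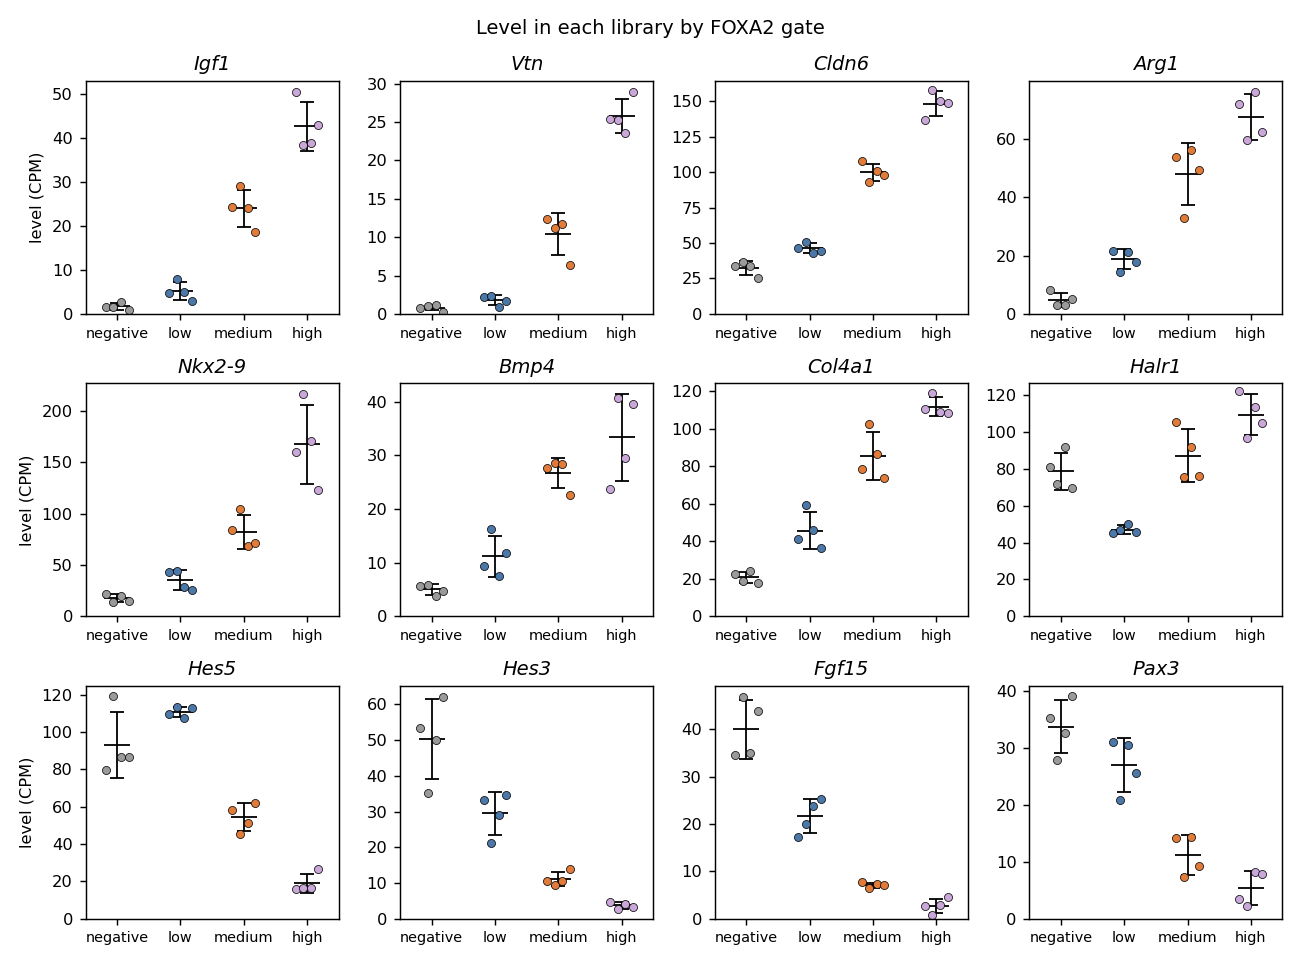
Levels in CPM (vertical axes, linear, each from 0) of 12 genes in the 4 gates, with 1 point per library and a line at the mean of each gate. Between low and medium, the points of these genes do not overlap, and Hes5 lies between 108 and 113 CPM in the low libraries.

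Nr2f1, the nuclear receptor COUP-TF1, measured 34.3, 24.4, 32.0 and 31.0 CPM in the low libraries and 11.6, 15.2, 8.12 and 13.7 CPM in the medium ones. It fell by 1.32 on the log2 scale (SE 0.194, adjusted p = 0.00041). The antisense gene A830082K12Rik, named after its values were seen, overlaps it on chromosome 13, lying at 78198017 to 78279391 on the plus strand while Nr2f1 lies at 78188973 to 78199757 on the minus strand. It fell from 12.2 ± 4.25 to 5.03 ± 1.88 CPM (adjusted p = 0.0489), a call lost without low 1, low 3, low 4, medium 1, medium 2 or medium 3 (adjusted p between 0.102 and 0.219), and also without any negative library or high 1, high 3 or high 4. The counting's strand setting is not given in the sources used here, so reads of the pair may not be told apart. Of 11 tested COUP-TF, Meis and Pbx genes, 1 fell (Nr2f1) and 0 rose, with a median of -0.15. Nr2f2, COUP-TF2, measured 85.3 ± 4.61 and 72.2 ± 21.6 CPM (adjusted p = 0.855).

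Of 14 tested Hox genes edgeR called 0, with 4 at an unadjusted p under 0.05 and 1 called lower by DESeq2. Their median was -0.35, and 13 of 14 fitted changes were negative. Hoxd3 measured 26.1 ± 8.26 and 12.4 ± 4.68 CPM (adjusted p = 0.0855). The long noncoding RNA Halr1, on chromosome 6 (52102949 to 52113684, plus strand), was higher in the medium gate. It measured 45.1, 46.8, 50.3 and 45.7 CPM in the low libraries and 105, 75.7, 91.6 and 76.3 CPM in the medium ones. It rose by 0.89 on the log2 scale (SE 0.126, adjusted p = 0.000284), and every medium library lay above every low one. Of 11 tested proneural and early neuronal genes, edgeR called 0 (3 at an unadjusted p under 0.05, 1 called lower by DESeq2), with a median of -0.30.

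Among signalling ligands the BMP group had 1 member that rose. Bmp4, a ligand of the dorsal tube, measured 9.37, 16.2, 7.48 and 11.8 CPM in the low libraries and 27.8, 28.5, 28.4 and 22.7 CPM in the medium ones. All medium libraries were above all low ones, and the log2 fold change was 1.27 (SE 0.209, adjusted p = 0.00143). Of 6 tested BMP ligands 1 rose (Bmp4) and 0 fell, with a median of 0.12. Bmp7 measured 60.3 ± 1.66 and 74.0 ± 8.38 CPM without overlap (adjusted p = 0.594), and Bmp2 5.72 ± 0.635 and 6.45 ± 2.86 CPM (adjusted p = 0.992).

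BMP signalling is known to raise genes of the Id, Msx and Smad families. Of 9 tested response genes, 1 rose (Atoh8) and 1 fell (Id2), with a median of -0.05; without low 1 and medium 2, 0 rose and 1 fell. Id2, an inhibitor of helix-loop-helix factors, fell from 70.6 ± 8.1 to 47.5 ± 8.75 CPM (log2 fold change -0.57, adjusted p = 0.0493); in the fits leaving out 1 low or medium library it was called only without medium 2, and adjusted p in the other fits was between 0.0595 and 0.202. Atoh8, a helix-loop-helix factor, rose from 6.67 ± 2.58 to 14.3 ± 4.1 CPM (log2 fold change 1.10, adjusted p = 0.0334) with overlap of the libraries; its call was lost without low 1, low 3, low 4, medium 1 or medium 2 (adjusted p between 0.0720 and 0.180). Id1 measured 93.9 ± 23.7 and 74.3 ± 13.6 CPM (adjusted p = 0.714), Id3 544 ± 89.4 and 485 ± 86.7 (adjusted p = 0.944), and Msx1 113 ± 15.6 and 112 ± 15.8 (adjusted p = 0.997). Of 8 tested antagonists and 6 tested receptors, edgeR and DESeq2 called 0, with 1 and 0 at an unadjusted p under 0.05 and medians of 0.17 and -0.01. Chrd, which codes for the antagonist chordin, measured 0.859 ± 0.531 and 3.1 ± 1.71 CPM (adjusted p = 0.126).

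The FGF ligand Fgf15 had the largest fall of the called genes. It measured 17.4, 20.1, 23.9 and 25.4 CPM in the low libraries and 7.68, 6.43, 7.26 and 7.08 CPM in the medium ones, which lay close together and below all low ones. It fell by 1.61 on the log2 scale (SE 0.215, adjusted p = 0.000162). Of 6 tested FGF ligands 1 fell (Fgf15) and 0 rose, with a median of -0.16, and of 12 tested FGF response genes edgeR and DESeq2 called 0 (2 at an unadjusted p under 0.05), with a median of -0.03.

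Sp5, a direct target of WNT signalling, measured 37.7, 18.7, 22.7 and 26.6 CPM in the low libraries and 62.6, 63.2, 48.2 and 67.5 CPM in the medium ones (2.27-fold, adjusted p = 0.00187). It was the 1 of 9 tested response genes that rose, and 0 fell, with a median of -0.02. Axin2, the most used reporter of the pathway, measured 45.9 ± 5.32 and 45.3 ± 6.46 CPM (adjusted p = 0.997). Sfrp2, a secreted WNT inhibitor, measured 128, 105, 108 and 123 CPM in the low libraries and 70.5, 56.7, 57.2 and 79.7 CPM in the medium ones, and fell by 0.81 on the log2 scale (SE 0.131, adjusted p = 0.00119). Of 18 tested WNT ligands and secreted modulators, edgeR called 1 lower (Sfrp2) and 0 higher, with a median of -0.42, and DESeq2 called 3 lower. In edgeR 10 of the 18 had an unadjusted p under 0.05. Sfrp1 and Sfrp5, inhibitors of the same family, had adjusted p of 0.0805 and 0.0821 in edgeR and of 0.0259 and 0.0427 in DESeq2. Of 15 tested genes of the retinoic acid pathway edgeR and DESeq2 called 0, with a median of -0.14. In edgeR 5 of the 15 had an unadjusted p under 0.05, beside 1012 of all 13891 tested genes. Cyp26a1, which degrades retinoic acid, measured 6.99 ± 1.08 and 6.36 ± 2.67 CPM (adjusted p = 0.992).

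Igf1, a secreted growth factor, had among the largest rises. It measured 4.69, 7.95, 5.08 and 2.9 CPM in the low libraries and 24.4, 29.0, 24 and 18.7 CPM in the medium ones, and rose by 2.24 on the log2 scale (SE 0.236, adjusted p = 4.9e-06). Igfbp4, a binding protein of the IGFs, rose from 51.4 ± 7.15 to 95.2 ± 20.4 CPM (log2 fold change 0.89, adjusted p = 0.00119). Igfbp5, another, measured 184, 235, 147 and 138 CPM in the low libraries and 336, 490, 237 and 274 CPM in the medium ones, and its call (log2 fold change 0.93, adjusted p = 0.0252) was lost without low 1, low 3, low 4, medium 1 or medium 2 (adjusted p between 0.0515 and 0.135) and by DESeq2 (adjusted p = 0.0696). Of 14 tested genes of the IGF pathway, 3 rose and 0 fell, with a median of 0.06, and 2 rose without low 1 and medium 2; Igf2r, the clearing receptor of IGF2, measured 11.7 ± 2.08 and 15.4 ± 5.14 CPM (adjusted p = 0.798).

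Both chains of type IV collagen on the list rose. Col4a1, a chain of type IV collagen in basement membranes, measured 41.0, 59.3, 45.9 and 36.4 CPM in the low libraries and 78.3, 103, 86.8 and 73.8 CPM in the medium ones (log2 fold change 0.91, SE 0.141, adjusted p = 0.00079). Col4a2, the chain it is assembled with, measured 39.3, 41.5, 42.1 and 33.2 CPM and then 60.0, 69.9, 52.0 and 59.5 CPM (log2 fold change 0.63, SE 0.123, adjusted p = 0.00928). Neither gene's gates overlapped. Col4a2 missed the threshold when low 4 was left out (adjusted p = 0.0596) and when low 1 and medium 2 were left out together (adjusted p = 0.0657). Of 15 tested basement membrane genes, 2 rose and 0 fell, with a median of 0.13; Agrn, which codes for agrin, measured 39.7 ± 2.4 and 47.1 ± 2.46 CPM without overlap (adjusted p = 0.596).

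The pair is transcribed head to head from start sites 21 bases apart, so their promoter windows share 78 bases. The shared stretch follows on the plus strand, with capitals for the bases from 1 start site to the other, where the annotated genes overlap by 22 bases.
Col4a1 and Col4a2 (chr8:11312777-11312854): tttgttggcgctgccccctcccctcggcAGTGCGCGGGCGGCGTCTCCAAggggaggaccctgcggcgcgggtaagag

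Vtn, which codes for the matrix protein vitronectin, measured 2.15, 2.3, 0.847 and 1.74 CPM in the low libraries and 12.4, 11.2, 11.8 and 6.37 CPM in the medium ones. Its log2 fold change was 2.56 (SE 0.296, adjusted p = 2.17e-05), one of the largest among the named genes. Smoc2, a secreted calcium-binding matrix protein, rose from 8.89 ± 1.53 to 20.9 ± 4.07 CPM (log2 fold change 1.24, adjusted p = 0.000332), while Ntng1, a membrane-anchored relative of the netrins, went from 10.2 ± 4.01 to 24.6 ± 3.52 CPM (log2 fold change 1.27, adjusted p = 0.0018). Both were called in all 8 fits.

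Adhesion molecules changed in both directions. Cdh1, which codes for the epithelial adhesion molecule E-cadherin, measured 27.6, 31.4, 25.6 and 20.4 CPM in the low libraries and 48.6, 67.0, 36.6 and 47.4 CPM in the medium ones (log2 fold change 0.93, SE 0.165, adjusted p = 0.00323). Cdh2, the neural cadherin, measured 137 ± 7.12 and 108 ± 16.4 CPM without overlap and did not pass the test (adjusted p = 0.255). Epha7, a receptor of ephrins, measured 37.9, 53, 37.5 and 30.6 CPM in the low libraries and 16.3, 22.8, 18.1 and 17.7 CPM in the medium ones, and fell by 1.08 on the log2 scale (SE 0.188, adjusted p = 0.00244).

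Of 21 tested cadherins, Eph receptors and ephrins, 2 rose (Cdh1 and Ephb3) and 2 fell (Epha7 and Efnb3), with a median of -0.03; without low 1 and medium 2, 1 rose and 1 fell. Ephb3, a receptor, rose from 27.2 ± 7.32 to 43.3 ± 3.54 CPM (log2 fold change 0.68, adjusted p = 0.0479) but was called in only 1 of the 8 fits, that without low 2, with adjusted p between 0.0692 and 0.215 in the others. Efnb3, a ligand, fell from 61.5 ± 11.7 to 37.3 ± 4.5 CPM (log2 fold change -0.72, adjusted p = 0.026), and was lost without low 1, low 4, medium 1 or medium 2 (adjusted p between 0.0711 and 0.130). The calls of Ephb3 and Id2 were also lost without negative 3, negative 4 or any high library, and that of Krt18, described below, without high 3 or high 4.

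**Figure D3:**
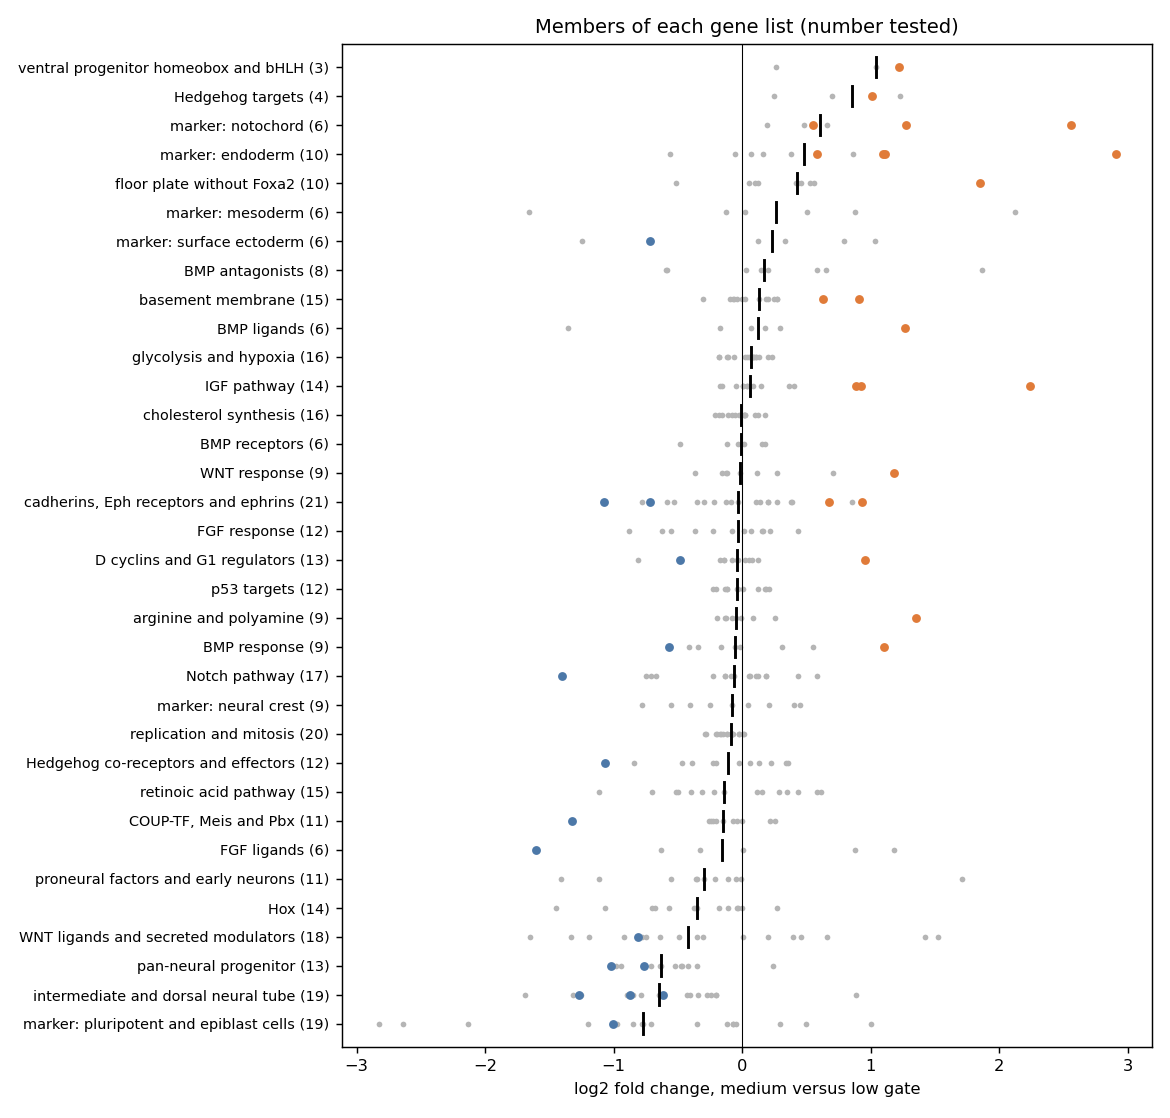
Log2 fold change of medium over low (horizontal axis) for the tested members of each list, 1 point per gene, with called genes in colour and a black tick at the median. The intermediate and dorsal list, with a median of -0.65, lies to the left, and the endoderm and notochord lists lie to the right.

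Of the cell cycle regulators, Cdkn1c was higher and Ccnd2 lower in the medium gate. Cdkn1c, an inhibitor of cyclin-dependent kinases, measured 300, 203, 200 and 222 CPM in the low libraries and 478, 578, 361 and 380 CPM in the medium ones (log2 fold change 0.96, SE 0.152, adjusted p = 0.00103). Ccnd2, the D cyclin of neural progenitors, measured 664, 647, 749 and 695 CPM in the low libraries and 465, 454, 568 and 480 CPM in the medium ones, falling by 0.49 on the log2 scale (SE 0.108, adjusted p = 0.0258); its call was lost without low 3, low 4, medium 1, medium 2 or medium 4 (adjusted p between 0.0603 and 0.145). Of 13 tested D cyclin and G1 genes 1 rose and 1 fell, with a median of -0.04. Of 20 tested replication and mitosis genes edgeR and DESeq2 called 0, with 0 at an unadjusted p under 0.05. Their median was -0.09, and 18 of 20 fitted changes were negative; Ccna2, a cyclin of S phase and G2, measured 194 ± 22.1 and 168 ± 20.6 CPM (adjusted p = 0.725).

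Arg1, which codes for arginase, the enzyme that splits arginine into ornithine and urea, measured 21.7, 14.3, 21.3 and 17.7 CPM in the low libraries and 53.9, 32.8, 56.2 and 49.4 CPM in the medium ones (log2 fold change 1.35, SE 0.203, adjusted p = 0.000503). It was the 1 of 9 tested arginine and polyamine genes that rose, and 0 fell, with a median of -0.05. Of 16 tested glycolysis and hypoxia genes, 16 cholesterol synthesis genes and 12 p53 targets, edgeR and DESeq2 called 0, with 0 at an unadjusted p under 0.05 and medians of 0.07, -0.01 and -0.04. Apela, a peptide hormone of the apelin receptor whose promoter is printed above, measured 12.3, 13.2, 8.47 and 9.14 CPM in the low libraries and 28.5, 21.8, 32.8 and 26.8 CPM in the medium ones (log2 fold change 1.35, SE 0.185, adjusted p = 0.00021). Ifitm1, a membrane protein of the interferon-induced family, rose from 260 ± 14.8 to 445 ± 48.8 CPM (log2 fold change 0.77, adjusted p = 0.000162).

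Markers of other cell types that a FOXA2 gate could hold were summed per library. The summed level of 16 endoderm markers ran from 226.9 to 252.9 CPM in the low libraries and from 330.3 to 445.6 in the medium ones (exact two-sided permutation p = 0.0286, the smallest that 4 against 4 allows, and 0.257 adjusted over 9 measures). Most of this sum was Sox17, Cldn6 and Epcam, called genes described below. They averaged 52.4, 46.3 and 90.3 CPM at low and 112, 99.9 and 135 CPM at medium FOXA2, so it mainly reflects these genes. The summed level of 7 notochord markers ran from 217.3 to 344.9 and from 326.7 to 408.1 CPM, with low 2 inside the medium range (exact two-sided permutation p = 0.0571, and 0.257 adjusted). Most of the notochord sum was the keratin genes Krt18 and Krt8. They averaged 159.2 and 86.2 CPM at low and 233.5 and 98.3 CPM at medium FOXA2, so it mainly reflects these genes. Mesoderm, neural crest and surface ectoderm sums overlapped between the gates, with exact permutation p between 0.714 and 0.8. The part of these cells in the results was not tested.

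Of 10 tested endoderm markers, 4 rose (Sox17, Ttr, Cldn6 and Epcam) and 0 fell, with a median of 0.48; without low 1 and medium 2, 3 rose. Sox17, a factor of endoderm, measured 59.5, 41.5, 52.5 and 56.0 CPM in the low libraries and 126, 105, 71.2 and 145 CPM in the medium ones (log2 fold change 1.09, SE 0.176, adjusted p = 0.00119). Cldn6, a tight junction protein, measured 46.5, 51.0, 43.3 and 44.2 CPM in the low libraries and 108, 93.0, 101 and 98.0 CPM in the medium ones (log2 fold change 1.11, SE 0.116, adjusted p = 4.9e-06). Ttr, the thyroxine carrier transthyretin, held 9 counts over the 4 low libraries and 61 over the 4 medium ones (log2 fold change 2.91, SE 0.547, adjusted p = 0.0062). In the edgeR fit of only the low and medium libraries Ttr was too low to be tested. After thinning to the smallest library its adjusted p in edgeR was 0.0798. Epcam, an epithelial adhesion molecule, rose from 90.3 ± 8.13 to 135 ± 33.2 CPM (log2 fold change 0.58, adjusted p = 0.0334), a call lost without low 1, low 3, low 4, medium 1 or medium 2 (adjusted p between 0.0797 and 0.136).

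The defining endoderm genes Afp, Apoa1, Gata6, Hnf4a, Sox7 and Cubn were too low to be tested, with 20, 27, 9, 4, 28 and 6 counts over the 4 low libraries and 11, 27, 15, 2, 17 and 18 over the 4 medium ones. Of 6 tested notochord markers, 3 rose (Krt18, Krt19 and Vtn) and 0 fell, with a median of 0.61; without low 1 and medium 2, 2 rose. Krt19, an epithelial keratin, measured 8.74, 10.9, 9.46 and 5.8 CPM in the low libraries and 17.7, 23.2, 26.1 and 17.1 CPM in the medium ones (log2 fold change 1.27, SE 0.186, adjusted p = 0.00041). Krt18 measured 136, 215, 148 and 138 CPM and then 215, 234, 267 and 218 CPM, so low 2 lay just below the medium libraries; its call (log2 fold change 0.55, adjusted p = 0.0391) stood in 1 of the 8 fits, that without low 2, and adjusted p was between 0.0573 and 0.173 in the others. The gene T, which codes for Brachyury and defines the notochord, measured 1.55 ± 0.589 and 2.48 ± 1.03 CPM (adjusted p = 0.9), and Noto had 0 counts in all 8 libraries, a total that allows up to 3.

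Of 19 tested pluripotent and epiblast markers, edgeR called 1 lower (Utf1) and 0 higher and DESeq2 2 lower, with a median of -0.77, and 16 of 19 fitted changes were negative. Utf1, a chromatin factor of pluripotent cells, measured 48.2, 67.3, 49.4 and 35.1 CPM in the low libraries and 28.7, 27.4, 26.4 and 17.4 CPM in the medium ones (0.499 times the low level, adjusted p = 0.0195), and its call was lost without low 2 or medium 4 (adjusted p between 0.0682 and 0.0791). Nanog measured 4.69 ± 3.46 and 1.01 ± 0.348 CPM and missed the threshold in edgeR (adjusted p = 0.0553) but passed it in DESeq2 (adjusted p = 0.00678). Pou5f1, which defines the pluripotent state, held 12 counts over the 4 low libraries and 2 over the 4 medium ones, and was too low to be tested. Tfap2c, on the surface ectoderm list, fell from 28.9 ± 3.11 to 17.5 ± 2.67 CPM (log2 fold change -0.72, adjusted p = 0.0139), a call lost without medium 1 (adjusted p = 0.0765). Of 6 tested genes of that list edgeR called 1 lower and 0 higher, with a median of 0.23, and DESeq2 also called Krt7, a keratin, higher (adjusted p = 0.0166, against 0.0506 in edgeR), while of 9 tested neural crest and 6 tested mesoderm markers edgeR called 0 (1 and 2 at an unadjusted p under 0.05, 0 and 1 called by DESeq2), with medians of -0.08 and 0.26.

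The negative and high libraries take no part in the difference between medium and low, so they measure the genes called there in other libraries. The labels do not say whether libraries of different gates came from the same cultures, so this measurement may not be independent. Between high and negative, 8.29% of tested genes were higher and 8.48% were lower. All 66 genes called higher in the medium gate, Foxa2 left out, were also called higher in the high gate, and 30 of the 31 lower genes were also called lower, with 0 called the other way. The median size of their change was 1.01 between medium and low and 2.03 between high and negative, on the log2 scale. The exception was Hist1h3b, a histone gene with near-identical copies whose counting is therefore uncertain. It measured 23.1, 13.2, 13.3 and 16.2 CPM in the low libraries and 5.12, 9.56, 6.39 and 8.64 CPM in the medium ones (log2 fold change -1.14, adjusted p = 0.0225; lost without low 1, low 4, medium 1 or medium 3, adjusted p between 0.0518 and 0.111), while high against negative gave -0.25 (adjusted p = 0.541).

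The joint model shares its estimate of spread between the comparisons, so each was also fitted on its own 8 libraries. There 45 genes other than Foxa2 were called between medium and low, and all 45 were called in the same direction between high and negative, where 9.85% of tested genes were higher and 9.73% were lower.

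**Figure D4:**
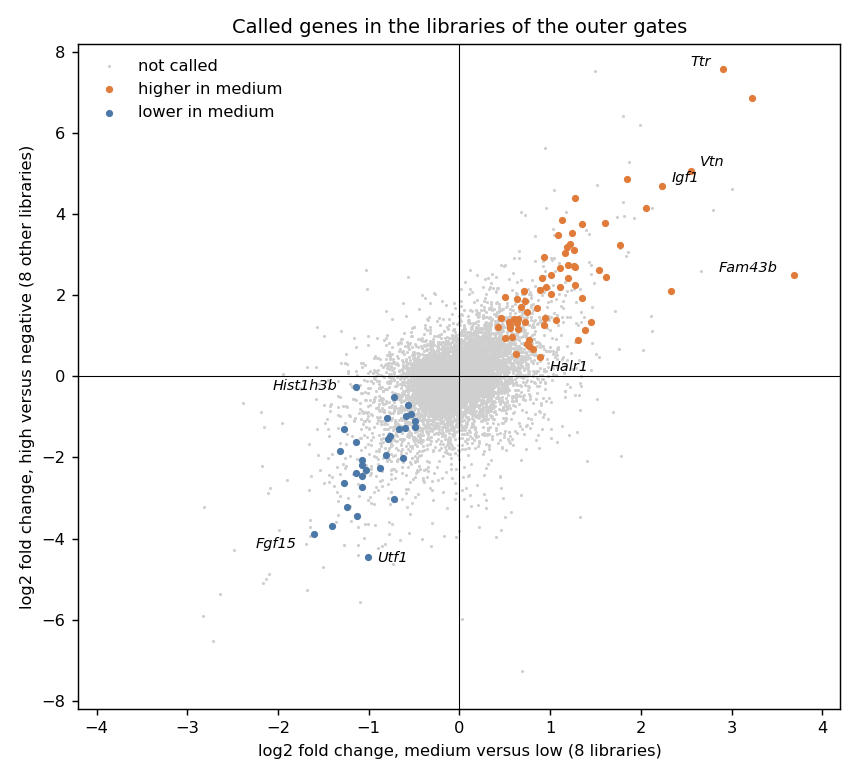
Log2 fold change of medium over low (horizontal axis) against that of high over negative (vertical axis) for all tested genes, with genes called between medium and low in colour. All 97 coloured genes other than Foxa2 have the same sign on both axes.

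Whether the change between low and medium differed from the steps beside it was tested on the same fit. Against the step from negative to low, 14 genes had a higher and 2 a lower change from low to medium. Each of the 14 had a lower mean in the low gate than in the negative gate, so a higher difference of steps need not be a rise from low to medium. Of the 14, only Halr1 and Utf1 were also called between medium and low, and Utf1 fell there. The 14 became 1 without low 3 and 20 without low 2, and were 9 or fewer without negative 1, negative 2, negative 3, low 1, low 4, medium 1, medium 3 or high 1. From negative to high, Halr1 measured 78.6 ± 10.1, 47.0 ± 2.31, 87.2 ± 14.1 and 109 ± 11.1 CPM, so it was lowest in the low gate (difference of steps 1.63 on the log2 scale, SE 0.223, adjusted p = 0.00173). That call held in all 12 fits leaving out a negative, low or medium library. Chchd10, a mitochondrial protein, measured 468 ± 77.5, 150 ± 22.8, 137 ± 12.2 and 160 ± 20.8 CPM from negative to high, so that its fall lay between negative and low (adjusted p = 0.00385; 0.0533 without low 3). Upp1, uridine phosphorylase, measured 55.6 ± 8.8, 13.2 ± 2.04, 12.5 ± 2.78 and 21.8 ± 4.33 CPM over the same gates. Its fall also lay between negative and low (adjusted p = 0.00797, and between 0.0552 and 0.0806 without low 1 or low 3), but its mean was higher again in the high gate.

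Hes5 was 1 of the 2 with a lower step. Over the same order of gates it measured 92.9 ± 17.8, 111 ± 2.66, 54.4 ± 7.46 and 19.0 ± 5.18 CPM, so that its fall lay above the low gate (difference of steps -1.28, SE 0.243, adjusted p = 0.0307). This call held in 4 of the 12 fits and was lost without negative 1, negative 3, negative 4, any low library or medium 3 (adjusted p between 0.0514 and 0.148). Meox1, a mesoderm homeobox gene and the other, measured 15.5 ± 1.39, 42.2 ± 3.29, 42.8 ± 6.19 and 23.4 ± 4.52 CPM from negative to high (adjusted p = 0.0135, and between 0.0806 and 0.0824 without low 1 or low 3). Against the step from medium to high, edgeR and DESeq2 called 0 genes in either direction. In edgeR 438 of the 13891 tested genes had an unadjusted p under 0.05 there.

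A long noncoding RNA beside Foxa2 was also higher. 9030622O22Rik, named after its values were seen, spans 147944740 to 148040203 of chromosome 2 (minus strand), 2674 bases downstream of Foxa2 at 148042877 to 148046969 on the same strand. It measured 1.39, 1.24, 0 and 1.16 CPM in the low libraries and 3.94, 12.9, 8.12 and 10.8 CPM in the medium ones (log2 fold change 3.23, SE 0.405, adjusted p = 7.35e-05). All medium libraries lay above all low ones, medium 1 the least.

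**Figure D5:**
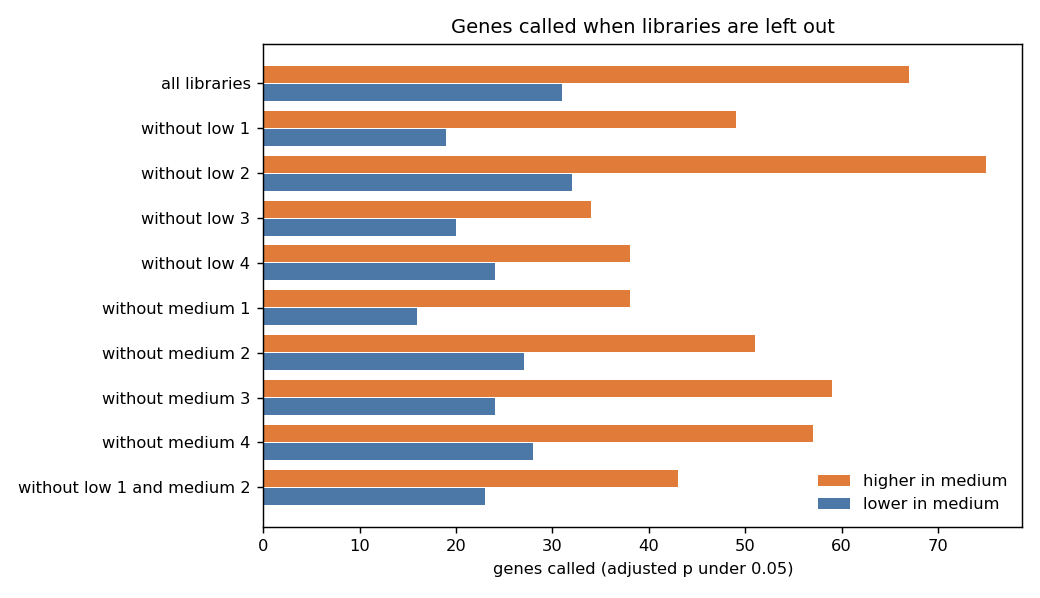
Number of genes called higher and lower in the medium gate (horizontal axis) in fits that leave out libraries (vertical axis), beside the fit of all 16. Without low 3 the higher count is 34, against 67 in the full fit, and without low 2 it is 75.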

How the data were processed

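BRB-seq libraries of 4 gates with 4 libraries each were measured, and the 4 medium and 4 low ones were compared. The authors deposited raw counts, whole numbers for 35976 genes with no normalization. The tools cutadapt 1.18, STARsolo 2.7.9a, DESeq2 1.42.0 and the build GRCm38 are named in the submitters' processing notes. Strand setting and molecular identifier handling: not given in the sources used here. Each column was matched by name. Coordinates are from GENCODE M21 (26763 symbols found) and promoter windows from RefSeq.

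The counts went into edgeR 4.0.16 (R 4.3.3) (expression filter, TMM scaling, quasi-likelihood test over all 16 libraries, Benjamini-Hochberg at 0.05). Kept genes held at least 99.665% of each library's counts, and scaling factors ran from 0.97 to 1.05. The standard error is |log2 fold change| over the square root of F. In the shallowest library of the pair of gates, 1 count was worth 0.197 CPM. Same-gate pairs differed by at least 4.87 in chi-square per degree of freedom, so none counted as duplicates. On simulated data of this comparison, over 13891 genes, 73 of 100 genes with a 2-fold change were recovered, and 92 of 100 with a 4-fold change. Of the other genes, 9 were called. The simulated libraries were drawn independently, with equal means in all gates apart from the changed genes. They hold no shared deviation like that of low 1 and medium 2, so these counts do not cover it.

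The members and the 34 lists (475 genes, 394 tested) were chosen with earlier results of these data known. Named genes were up to 15 per direction with the largest change, 1 sign over the 4 same-numbered comparisons and at least 10 CPM in the higher gate (unnamed gene models left out), called list members, a set of fixed genes, up to 3 uncalled members of each list by p, and the leading genes of the step contrasts; a few genes chosen in this way are left out of the text. Alternatives were RLE scaling, DESeq2, no filter, a replicate block, thinning to the smallest library, the compared gates alone and each library left out. The fit without low 1 and medium 2 and a robust spread were added after seeing the data.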

Additional observations from a re-analysis of the deposited data

Results flagged for a closer look

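In 336 groups of 4 libraries (168 named genes in the low and the medium gate), 15 had 1 library far from the other 3 by Dixon's criterion. Chance alone flags about 1 in 20 such groups. Low 2 was the outlying library in 7 of the 15. It lay above the other low libraries for Krt18 (215 CPM, others 136 to 148), Axin2 (53.9, others 42.6 to 43.8), Fgf5 (1.06, others 0.282 to 0.38), Igfbp2 (167, others 103 to 110), Tfap2b (24.4, others 8.99 to 9.24) and Chchd10 (184, others 136 to 141), and below them for Bmp2 (4.77, others 5.95 to 6.08).

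Medium 2 was the outlying library for 4 genes, and was above the other medium libraries for each: Ptch1 (99.1 CPM, others 53.1 to 57.8), Krt7 (41.4, others 16.1 to 20), Igf2r (23.1, others 12 to 13.7) and Pou5f1 (0.33, others 0). Medium 1 lay below the others for Ephb3 (38 CPM, others 44.7 to 45.5) and Tfap2b (4.13, others 8.21 to 8.74). Medium 4 lay below them for Bmp4 (22.7 CPM, others 27.8 to 28.5), and medium 3 above them for Car10 (9.33 CPM, others 4.67 to 5.11), a carbonic anhydrase-related gene that fell by 1.24 on the log2 scale from low to medium (adjusted p = 0.0062).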

How the results depend on the processing

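None of the called genes changed direction in any of the alternatives, and the 98 calls held for 98 genes under RLE scaling, 97 by DESeq2, 96 without the filter, 93 with the replicate block, 61 after thinning and 46 with only the compared gates. Counts of higher and lower genes between medium and low were 99 and 49 by DESeq2, 115 and 84 without the filter (57.8% higher, against 68.4%), 48 and 20 after thinning, 32 and 14 with only the compared gates, and 43 and 23 without low 1 and medium 2. Leaving out 1 library gave 34 to 75 higher and 16 to 33 lower. Between high and negative it gave 909 to 1318 higher and 901 to 1396 lower.

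The count of genes whose step from low to medium differed from that below it (14 higher, 2 lower) was 52 and 12 by DESeq2, 68 and 53 without the filter, 29 and 8 with the replicate block, 5 and 1 after thinning, 9 higher with only the compared gates, and 5 and 0 without low 1 and medium 2. Leaving out 1 library gave 1 to 20 and 0 to 4. Against the step above, 11 and 6 genes were called without the filter and 0 in each leave-one-out fit. With the replicate block 83 genes were higher and 38 lower between medium and low. Same-numbered low and medium libraries had correlated deviations of -0.10, -0.02, 0.16 and 0.21, and only numbers 3 and 4 matched their own number best. Low 1 and medium 2 matched each other best, as did low 2 and medium 1. These matches are a hint from the data and not the design. The cause of the shifts in the counts was not tested. Depth limits low genes, which the filter removes.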

Other observations

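The called genes given here stand outside the lists above and were chosen after their values were seen. Cldn7, a claudin, measured 37.1 ± 8.33 CPM at low and 61.9 ± 17.3 at medium FOXA2 (adjusted p = 0.03; lost without low 3, low 4, medium 1 or medium 2, between 0.0874 and 0.164). Prss8, a membrane serine protease of epithelia, measured 39.6 ± 13.8 and 65.2 ± 6.22 CPM (adjusted p = 0.0252; lost without low 1, low 3, low 4, medium 1, medium 2 or medium 3, between 0.0648 and 0.127). Emb, an immunoglobulin-family membrane protein, measured 230, 213, 213 and 203 CPM in the low libraries and 319, 340, 326 and 317 CPM in the medium ones (log2 fold change 0.60, SE 0.0884, adjusted p = 0.00041). Mest, an imprinted gene, fell from 1232 ± 96.2 to 812 ± 107 CPM (log2 fold change -0.60, adjusted p = 0.00119). Emb and Mest were called in all 8 fits that leave out 1 low or medium library.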
